A study of Homo sapiens with 18 samples.

Results

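The p53 target genes examined here are CDKN1A, BTG2, GADD45A, MDM2, PPM1D, BBC3, BAX, FAS, TP53I3 and SESN1. They were chosen by name and not by a rule on measured values, although earlier results of these data were known. They are 10 of the 20136 protein-coding genes of the annotation. Each gene was taken as its body plus 5 kb on each side in hg19 (GRCh37), which gave windows of 13134 to 120538 bp. HCT116 is an established human epithelial colorectal carcinoma line. DNA:RNA hybrids of HCT116 cells were mapped by DRIP-seq, in which the S9.6 antibody precipitates hybrids from DNA cut with restriction enzymes. One group of cells was not treated with drug (NT), and the others received camptothecin (CPT) at 10 µM, either for 5 min or for 60 min. Each treatment had 2 biological replicates, and each replicate was a pool of parallel precipitations. CPT traps DNA topoisomerase I on DNA as a cleavage complex. Every DRIP library was matched by a library from DNA digested with RNase H, which degrades the RNA of a hybrid, and by an input library. Peak lists of 6 DRIP and 6 RNase H libraries were used, and the input libraries have no list here.

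p53 is a transcription factor that is stabilised after DNA damage and binds response elements near its target genes. The targets carry out cell cycle arrest, apoptosis and protection from stress, and some of them switch p53 off again in a feedback loop. R loops, in which nascent RNA pairs with the template strand and leaves the other strand unpaired, form over transcribed genes. A peak list gives where hybrids were called and how far each peak stood above its input, not how much RNA a gene made. More cells with a hybrid at a locus and more hybrid per cell cannot be told apart.

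The DRIP lists held 30314 and 52967 peaks in NT replicates 1 and 2, 33852 and 56543 peaks after 5 min of CPT, and 41668 and 72879 peaks after 60 min. The second replicate had the longer list in every treatment. RNase H lists were shorter and unequal, with 473 and 15790 peaks in NT, 3439 and 50353 peaks at 5 min, and 5392 and 67188 peaks at 60 min. The lists hold no read counts, so depth is unknown from them, and a missing peak is a locus below the calling threshold. Because a list's fold enrichment depends on its own library and input, peaks were compared between lists by their bases and by their rank within the list. As a check of the cell line, 7 epithelial genes and 8 genes of other lineages were examined for DRIP peaks. A peak was present in both NT lists at 3 of the 7 epithelial genes and at 2 of the 8 genes of other lineages, and in both 60 min lists at 5 and 2 of them. KRT8 and KRT18, keratins of simple epithelia, carried more than 10 kb of peaks in each DRIP list. The epithelial genes CDH1 and CEACAM5 had no peak in either NT list, while GFAP and INS, of other lineages, had peaks in both. The check thus separated the gene sets only weakly in NT.

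The positions of the peaks are easiest to read beside the sequence, because DRIP DNA is cut at fixed sites. DNA had been digested with 5 enzymes. Hind III cuts at AAGCTT, Eco RI at GAATTC, Xba I at TCTAGA, Ssp I at AATATT and Bsr GI at TGTACA. The windows of the p53 target genes held 714 such sites with a median fragment of 314 bp. The following reference sequences of GRCh37 (gene strand, 5′ to 3′) surround 5 of the sites that bounded a peak in 3 or more DRIP lists, with the recognition site in capitals. They are shown because recurring edges of CDKN1A, BTG2 and FAS peaks, and of a peak downstream of BAX, lie at them.
CDKN1A Ssp I, chr6:36644601-36644630: aggtacttaagaAATATTgaatgtcgtggt
CDKN1A Xba I, chr6:36650655-36650684: ggctgccaggtgTCTAGActtcagatcacc
BTG2 Xba I, chr1:203273117-203273146: ccactgcaaccaTCTAGAtagtaagaagca
BAX Hind III, chr19:49468047-49468076: tcacagccttccAAGCTTcccaaggatccg
FAS Hind III, chr10:90751000-90751029: cggaagtctgggAAGCTTtagggtcgctgg

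Across the 6 DRIP lists, 145 of 390 peak edges in these windows (37.2%) lay within 5 bases of a cut, although only 2.02% of the window positions did. The same was measured over the whole lists, where 26.3% to 33.9% of DRIP edges lay at a cut beside 2.14% of all genome positions. Summits, the points of highest enrichment in a peak, lay at a cut for 66 of the 200 DRIP peaks of the p53 target genes (33.0%), and for 18.8% to 34.1% of the peaks of a whole list. The CDKN1A Xba I site bounded a peak in 6 of 6 DRIP lists and 3 RNase H lists, and the CDKN1A Ssp I site in 5 DRIP and 3 RNase H lists. The RNase H lists were alike, with 54 of 154 edges (35.1%) at a cut. Peak widths at these genes are therefore given as the measured peak and not as the length of a hybrid.

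**Figure D1:**
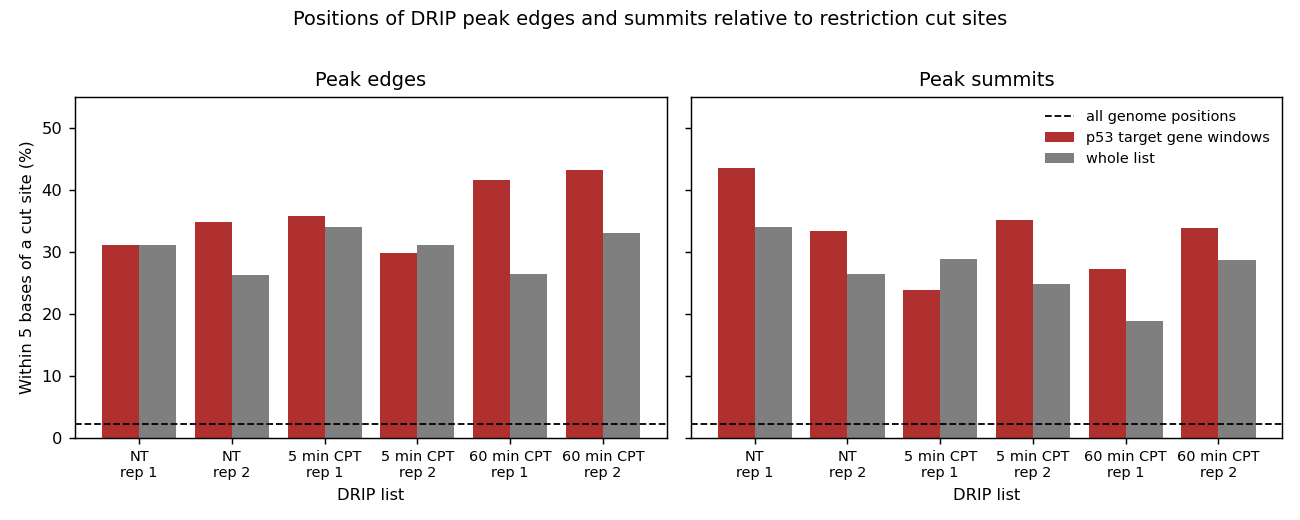
Share (%) of DRIP peak edges (left) and summits (right) within 5 bases of a restriction cut, in the windows of the p53 target genes (red) and in the whole list (grey), for each of the 6 DRIP lists. The dashed line is the share of all genome positions within 5 bases of a cut, 2.14%, and every bar lies above it.

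Summits recurred at the same base. At 6 of the p53 target genes, 11 positions had a DRIP summit within 2 bases in at least 3 lists, and all 11 were within 2 bases of a cut. The most frequent was in an intron of BAX at +5114 from the transcription start site (TSS), found in 6 of 6 DRIP lists and 3 RNase H lists. BTG2 had one downstream of the gene at +8896 in 4 DRIP lists, and MDM2 one in an intron at +18183 in 4 DRIP lists. The reference sequence of the MDM2 position follows, 30 bases on each side of the summit, with the recognition site in capitals.
MDM2 +18183, chr12:69220110-69220170: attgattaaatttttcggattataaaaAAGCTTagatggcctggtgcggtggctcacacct
Summits shared with at least 2 other DRIP lists made up 7 of 23 peaks of the p53 target genes in NT replicate 1 and 7 of 62 peaks in 60 min replicate 2, or 30.4% and 11.3%. Over the whole of those lists the shares were 12.5% and 6.36%.

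The windows were also searched for p53 response elements, as adjoining half-sites, each with a C and a G around a pair of A or T bases as its core and with at most 2 mismatches in all to the p53 half-site consensus outside the cores. The motif is its own reverse complement, so both strands were read. Such an element lay within 1 kb of the TSS in 144 of the 20136 genes (0.715%) and in CDKN1A and FAS among the 10 targets. A search without mismatches and with a spacer of up to 13 bases found 49 genes (0.243%) and 0 of the 10 targets. In the whole windows there were 5 matches, of which 3 are elements long known to be bound by p53. They are printed with the cores in capitals, because peaks cover them to different degrees.
CDKN1A, chr6:36644226-36644245: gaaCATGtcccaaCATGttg
GADD45A, chr1:68152458-68152477: gaaCATGtctaagCATGctg
FAS, chr10:90751066-90751085: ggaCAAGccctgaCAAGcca
The CDKN1A element, at -11 to +8, lay under a peak in 1 of 6 DRIP lists, the second 60 min replicate. The FAS element, at +652 to +671, was likewise covered only in the second 60 min replicate, beyond the Hind III site at which the other FAS peaks stopped. The GADD45A element, in an intron at +1574 to +1593, lay under a peak in 5 of 6 DRIP lists and in no RNase H list. A match is a description of the letters, and binding was not measured in these libraries.

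Bases under DRIP peaks were then compared between treatments for each gene. BTG2, CDKN1A and MDM2 had more bases under peaks in both 5 min lists than in either NT list, and the same genes with TP53I3, FAS and SESN1 did so at 60 min. No p53 target had fewer bases in both lists at either time, although with DRIP lists of equal size SESN1, BBC3 and BAX did at 5 min (3 of 10, against 17.8% of all genes). The counts are 3 of 10 higher and 0 of 10 lower at 5 min, beside 14% and 14.8% of all 20136 genes, and 6 of 10 higher and 0 of 10 lower at 60 min, beside 24.4% and 6.62% of all genes. The median difference from NT over the 10 genes was 245.25 bp at 5 min and 4420.25 bp at 60 min, and over all genes it was 0 and 172 bp. All genes include 4258 at 5 min and 4050 at 60 min without a peak in any list compared. Such genes cannot be called and lower the shares and medians of all genes. Both comparisons use the same NT lists. With 2 lists against 2, a two-sided exact permutation test cannot give a p below 0.333, which is the value of every gene whose lists did not overlap, so no single gene passed a test. For this reason the values of each list are given for each gene. With peaks limited to a −log10 q of at least 3, a stricter threshold, the separation ended for MDM2 at 5 min and for FAS and SESN1 at 60 min. By the number of peaks in place of bases it ended for CDKN1A and MDM2 at 5 min and for SESN1 at 60 min, and in the gene body without flanks for MDM2 at 5 min.

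The combined windows of the 10 genes were covered by peaks over 4.67% and 8.17% of their bases in the NT replicates, 5.28% and 11.3% at 5 min, and 12.6% and 26.2% at 60 min. Windows of all protein-coding genes were covered over 2.48% and 4.70%, 1.53% and 3.69%, and 2.80% and 6.63%. In the targets both 60 min lists thus lay above all 4 other lists, while among all windows the second NT replicate lay above the first 60 min replicate.

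**Figure D2:**
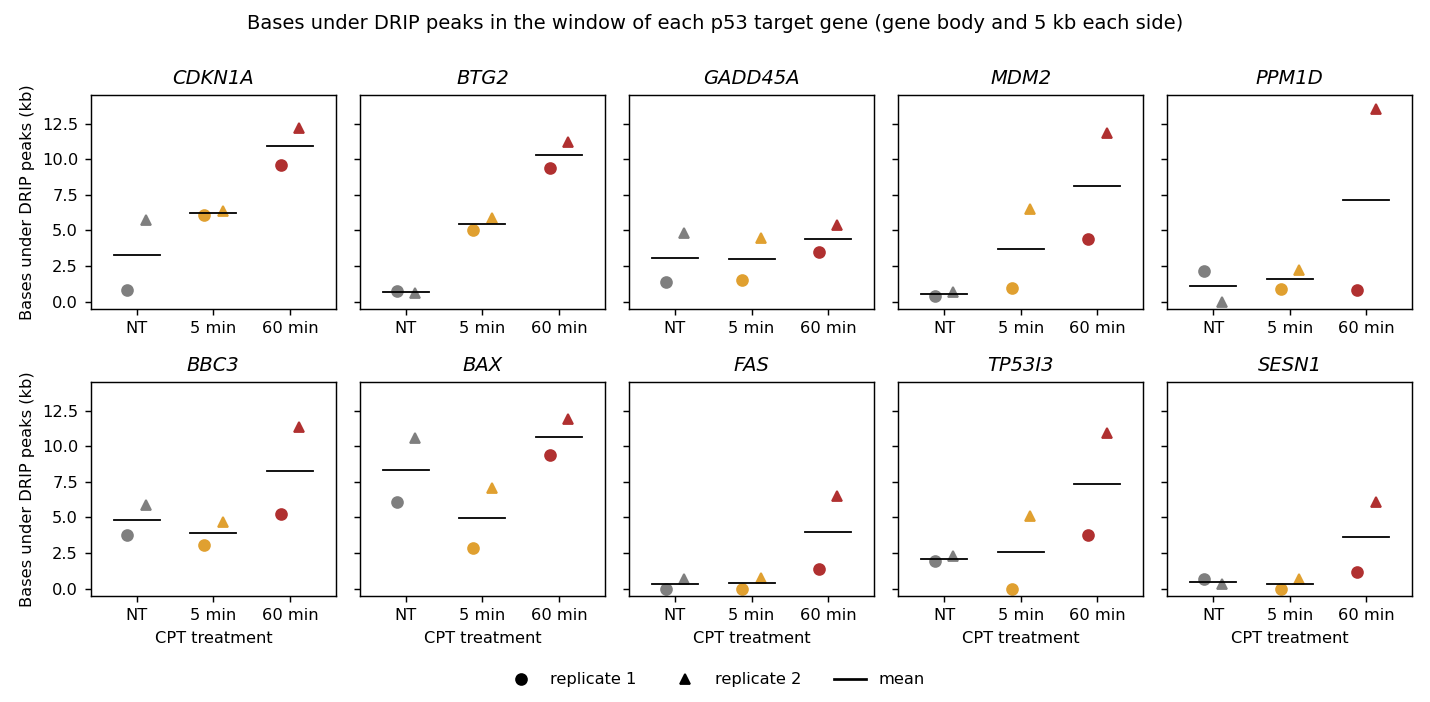
Bases under DRIP peaks (kb) in the window of each of the 10 genes, for NT, 5 min and 60 min of CPT. Circles are replicate 1, triangles replicate 2 and lines the mean of both; the 60 min points of CDKN1A, BTG2, MDM2, TP53I3, FAS and SESN1 lie above both NT points, and those of GADD45A, BBC3, BAX and PPM1D do not separate.

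The targets of cell cycle arrest come first. CDKN1A encodes p21, an inhibitor of cyclin-dependent kinases that holds cells before S phase. The gene lies at chr6:36644237-36655114 on the plus strand, and its annotated starts fall at 0 to +68 and at +2250 to +2311. Bases under DRIP peaks numbered 822 and 5712 in the NT replicates, 6056 and 6352 at 5 min, and 9570 and 12207 at 60 min. All CPT lists were thus above both NT lists, and the NT replicates were far apart (3267 ± 3458 bp, SD, n = 2). In NT replicate 1 the peaks were short stretches at either end of the Ssp I to Xba I fragment, from +379 to +736 and from +5971 to +6434. In NT replicate 2, peaks of 3269 and 2443 bp already covered most of that fragment, from +384 to +3652 and from +3992 to +6434. In both 5 min lists and in 60 min replicate 1, a single peak of 6056 bp spanned that fragment from +379 to +6434, and in 60 min replicate 2 it began at -599. The strongest CDKN1A peak ranked 7610 of 30314 and 4990 of 52967 in the NT lists, 1066 of 33852 and 373 of 56543 at 5 min, and 176 of 41668 and 81 of 72879 at 60 min.

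Further peaks of CDKN1A appeared beyond the Xba I site. A region at +7054 to +9471 and another at +11454 to +13463, past the end of the gene, had peaks in both 60 min lists and in none of the 4 NT and 5 min lists. RNase H 60 min replicate 2 also held peaks there, at +7130 to +9471 and at +11865 to +13463. RNase H did not remove the CDKN1A signal from every library. The 6056-bp peak was called with the same edges in RNase H 60 min replicate 2, at rank 28 of 67188, and peaks from +379 were called in both RNase H 5 min lists. In RNase H NT replicate 1 the window had no peak, in RNase H NT replicate 2 it had 289 bp and in RNase H 60 min replicate 1 it had 527 bp. The long noncoding genes PANDAR and DINOL also lie in this window, on the minus strand, and the peaks carry no strand.

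BTG2, an antiproliferative gene of the BTG/TOB family, lies at chr1:203274619-203278730 on the plus strand. It had 731 and 596 bp under peaks in the NT replicates, 5011 and 5853 bp at 5 min, and 9409 and 11173 bp at 60 min. The replicates of each treatment lay close together, and the 3 treatments did not overlap. The NT peaks were a 744-bp peak downstream of the gene in replicate 1 and a 596-bp peak inside it in replicate 2, which did not overlap each other. At 5 min the window held 6 and 7 separate peaks, starting at -1489 in both lists. At 60 min replicate 1 held an upstream peak from -1489 to +96 and an 8437-bp peak from +1289, at rank 121 of 41668, and replicate 2 held a 10909-bp peak from -1489 to +9419, at rank 12 of 72879. The upstream edge at -1489 is the BTG2 Xba I site printed above. That edge and most of the upstream bases of the window lie inside BTG2-DT, a long noncoding gene on the minus strand. Peaks carry no strand, so the upstream bases cannot be assigned to BTG2 alone. In the gene body without flanks, both values of BTG2 at 5 min and at 60 min still lay above both NT values. RNase H 60 min replicate 2 held a 14988-bp peak over the same stretch, at rank 43 of 67188, RNase H 5 min replicate 2 held 5 shorter peaks, RNase H 60 min replicate 1 held a 292-bp peak, and the other 3 RNase H lists held none.

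GADD45A, a stress sensor that takes part in the G2/M checkpoint and in DNA repair, lies at chr1:68150884-68154017 on the plus strand. Bases under peaks were 1347 and 4806 in NT, 1490 and 4426 at 5 min, and 3445 and 5395 at 60 min, so the lists of the 3 treatments overlapped. No other annotated gene shares its window. The strongest peak had percentile 82.6 and 92.2 within the NT lists, 98.4 and 99.6 within the 5 min lists, and 98.4 and 99.6 within the 60 min lists. In the first replicates this peak started at +1051 in NT and at +3142 and +3167, past the gene end, at 5 and 60 min. In the second replicates it was a wide peak over the gene in every treatment. It ran from -909 to +3896 in NT, +28 to +4453 at 5 min and -909 to +4485 at 60 min. The RNase H lists of the first replicates and of NT had no peak at GADD45A.

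**Figure D3:**
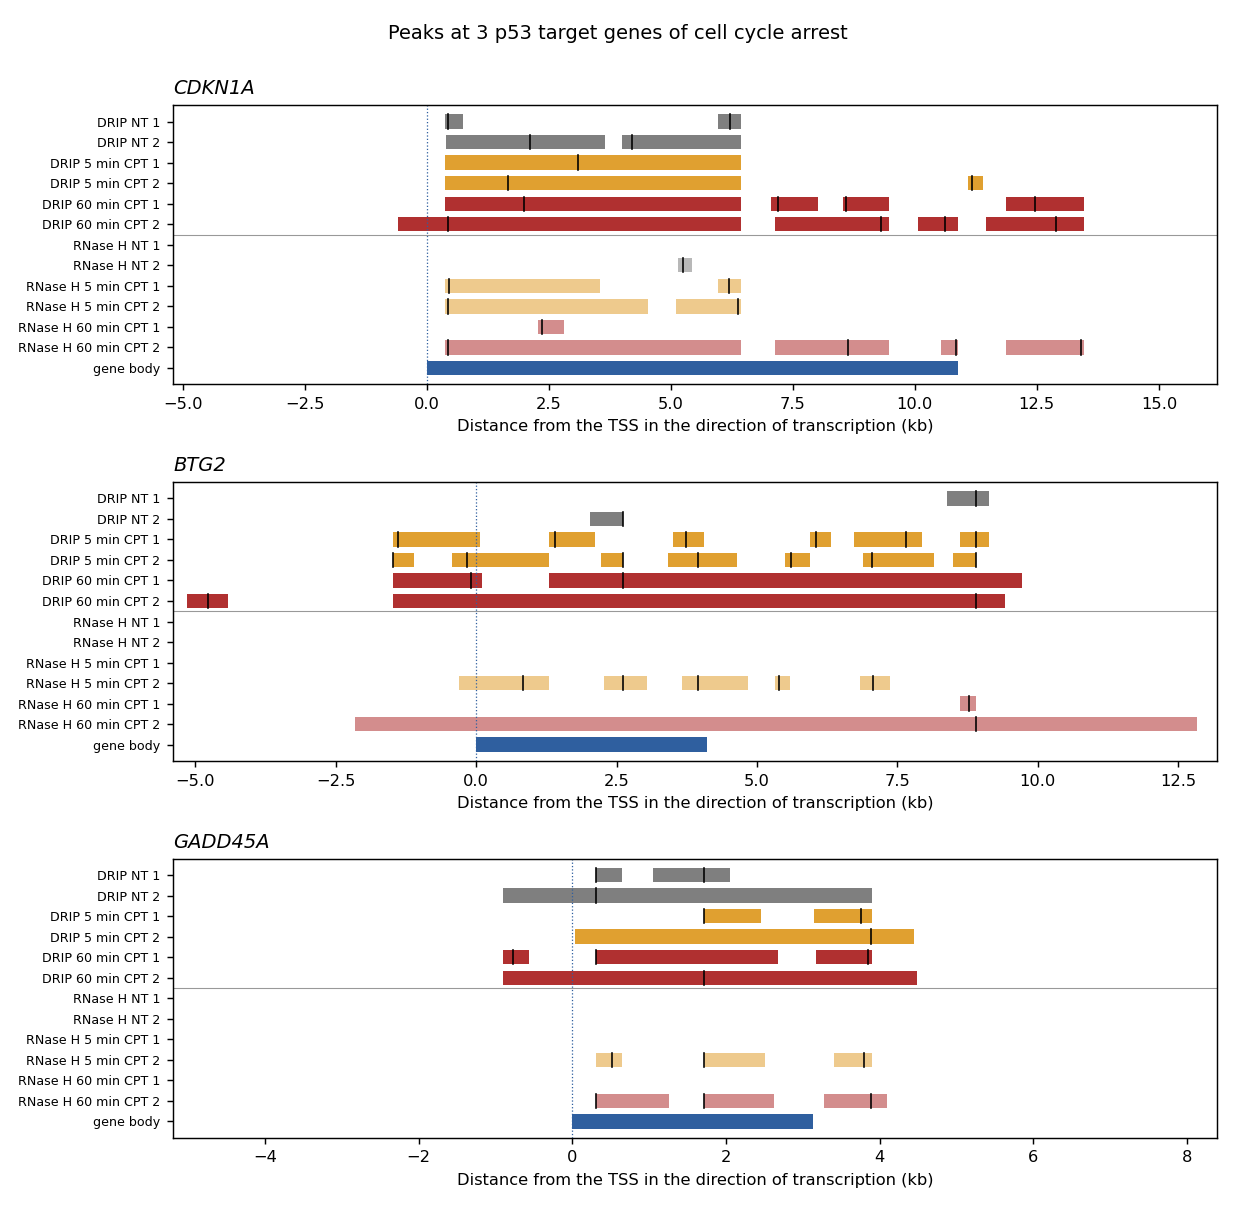
Peaks at CDKN1A, BTG2 and GADD45A in the 6 DRIP lists (solid) and the 6 RNase H lists (pale), with distance from the TSS in kb on the horizontal axis, summits as black lines and the gene body in blue. The 60 min DRIP peaks of CDKN1A and BTG2 are wide and end at shared positions, and RNase H 60 min replicate 2 holds wide peaks at both genes.

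The feedback genes were next. MDM2, the ubiquitin ligase that marks p53 for degradation, lies at chr12:69201957-69239324 on the plus strand and has a p53-responsive promoter in its first intron. Bases under peaks were 407 and 636 in NT, 923 and 6469 at 5 min, and 4387 and 11819 at 60 min. All CPT values lay above both NT values, and at each time the second replicate was far above the first. The NT peaks were at +357 to +763 in replicate 1 and between +16650 and +18184 in replicate 2. A peak within 1 kb of the TSS was present in both lists at 5 and at 60 min, the widest being 5473 bp from -1652 to +3820 in 60 min replicate 2. An intronic region at +4676 to +5258 was called in both DRIP replicates of 60 min and in none of NT or 5 min, and RNase H 60 min replicate 2 held a peak over it, at +4676 to +5264. MDM2 peaks were called in 2 RNase H lists, the second replicates at 5 and 60 min.

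PPM1D encodes the phosphatase WIP1, which dephosphorylates p53 and other damage response proteins, and lies at chr17:58677554-58743641 on the plus strand. It had 2127 and 0 bp in NT, 913 and 2206 bp at 5 min, and 781 and 13542 bp at 60 min. The 60 min replicates lay on opposite sides of the higher NT value, and nearly all of the 60 min bases came from the 13 peaks of replicate 2. Regions at -1051 to +1899 and at +10308 to +12361 had peaks in both 60 min lists and in neither NT list, and RNase H 60 min replicate 2 held peaks in the first of them. An intronic peak from +30779 was found in NT replicate 1 and both 5 min lists and in no 60 min list, and in RNase H 60 min replicate 2.

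The targets of apoptosis include BBC3 and BAX. BBC3 encodes PUMA, a BH3-only protein that triggers apoptosis at mitochondria, and lies at chr19:47724079-47736023 on the minus strand. Its bases under peaks were 3782 and 5894 in NT, 3093 and 4674 at 5 min, and 5248 and 11338 at 60 min, and the treatments overlapped. Both 5 min values lay below the higher NT value. A peak edge at +618, the Eco RI site, was present in 5 of 6 DRIP lists. The widest peak of the 60 min lists was 4300 bp from +618 in replicate 1, beside shorter peaks further downstream, and 7234 bp from -512 to +6721 in replicate 2, at rank 363 of 72879. A region at +7430 to +8678 had peaks in both 60 min lists, in 1 of the 5 min lists and in neither NT list, and RNase H 60 min replicate 2 held peaks in it. That RNase H list covered 10018 bp of the BBC3 window, RNase H 5 min replicate 2 covered 2333 bp, and the other 4 held no peak.

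BAX, an effector that permeabilises the mitochondrial outer membrane, lies at chr19:49458072-49465055 on the plus strand. It was the target with the most bases in the NT lists. Its values were 6073 and 10580 bp in NT, 2831 and 7042 bp at 5 min, and 9387 and 11894 bp at 60 min, and they overlapped between treatments. The strongest peak in the BAX window stood between percentile 97.5 and 99.3 in all 6 DRIP lists. It lay downstream of the gene in NT replicate 2, from +8519, and in both 5 min lists, from +9988 and partly over FTL. Over the BAX body the strongest 5 min peaks had percentile 89.6 in replicate 1 and 97.4 in replicate 2. Part of the window belongs to FTL, the ferritin light chain gene, and when bases of other protein-coding genes were left out both 60 min values of BAX lay above both NT values. Bases under RNase H peaks at BAX were 1444 in NT replicate 2, 8283 in 5 min replicate 2 and 10902 in 60 min replicate 2, and the first replicates held none.

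FAS, a death receptor at the cell surface, lies at chr10:90750414-90775542 on the plus strand. It had 0 and 659 bp in NT, 0 and 772 bp at 5 min, and 1376 and 6521 bp at 60 min. Both 60 min values were above NT, and the 5 min values overlapped with those of NT. Peaks at +237 to +601, -169 to +602 and -22 to +602 in NT replicate 2, 5 min replicate 2 and 60 min replicate 1 ended at the FAS Hind III site. ACTA2, which runs in the opposite direction, covers the upstream bases and also the start of the FAS body. The peaks that ended at the Hind III site and the FAS p53 element, at +652 to +671, lie inside ACTA2 as well. Peaks carry no strand, so these cannot be assigned to FAS alone. Without bases of other protein-coding genes the FAS values overlapped. The same setting ended the separation of TP53I3, but it cannot decide for that gene. FAM228B and SF3B6 cover nearly all of the TP53I3 window, so almost no bases were left.

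TP53I3 (PIG3), an oxidoreductase linked to reactive oxygen species, lies at chr2:24300303-24308731 on the minus strand, wholly inside FAM228B. Bases under peaks were 1955 and 2256 in NT, 0 and 5079 at 5 min, and 3733 and 10921 at 60 min. Both 60 min values were above NT, and the 5 min replicates lay on opposite sides of it. Intronic regions at +4971 to +6244 and +7310 to +8719 had peaks in both 60 min lists and in none of the other 4 DRIP lists. RNase H 60 min replicate 2 held peaks in both regions and 8609 bp in the TP53I3 window, RNase H 5 min replicate 2 held 2165 bp, and the other 4 RNase H lists held none.

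**Figure D4:**
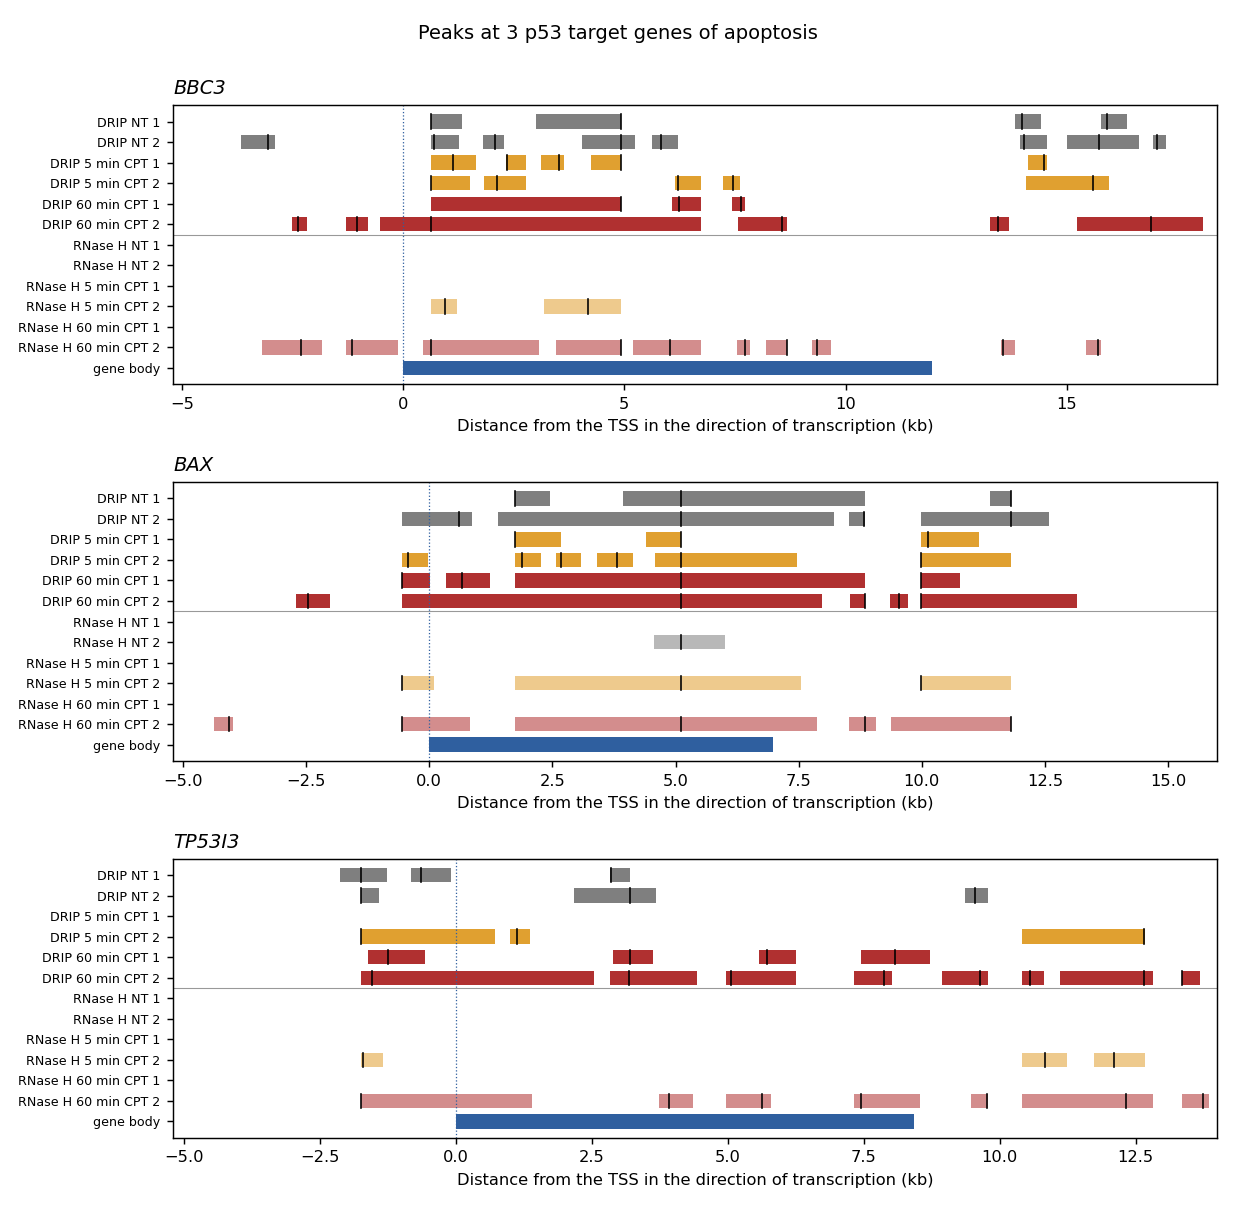
Peaks at BBC3, BAX and TP53I3 in the 6 DRIP lists (solid) and 6 RNase H lists (pale), with distance from the TSS in kb on the horizontal axis, summits as black lines and the gene body in blue. BAX has peaks over the gene body in every DRIP list with a summit at +5114, and TP53I3 has none in 5 min replicate 1.

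SESN1, a sestrin that restrains growth signalling under stress, is the longest of the genes, at chr6:109305512-109416049 on the minus strand. It had 699 and 287 bp under peaks in NT, 0 and 703 bp at 5 min, and 1176 and 6071 bp at 60 min. Both 60 min values lay above NT, the first by 477 bp. A region upstream of the TSS at -2371 to -1766 had peaks in both 60 min lists only, and peaks with summits between -4828 and -4647 were called in 4 DRIP lists. That region and those summits lie inside CEP57L1, a protein-coding gene that runs in the opposite direction, so they cannot be assigned to SESN1 alone. With bases of other protein-coding genes left out, both 60 min values of SESN1 still lay above both NT values. Limiting every DRIP list to its 30314 strongest peaks ended the separation of SESN1 and kept that of the other 5 genes at 60 min.

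Peaks at start sites were counted next. A peak lay within 1 kb of the TSS in both NT lists for GADD45A, CDKN1A and BBC3 (3 of 10, against 15.4% of all genes). At 5 min it did so for BTG2, CDKN1A, MDM2 and BBC3 (4 of 10, against 14.7%), and at 60 min for 8 of 10 (against 25.4%), the exceptions being SESN1 and PPM1D. Without DRIP peaks that the matched RNase H list also held, the counts were 3 of 10 in NT, 0 of 10 at 5 min and 0 of 10 at 60 min, against 11.7%, 4.37% and 5.44% of all genes. That filter was uneven. Over whole lists it met 0.445% and 10.8% of DRIP peaks in the NT replicates, 2.79% and 33.0% at 5 min, and 1.70% and 49.0% at 60 min. The filtered counts therefore cannot be compared between treatments. Regions were also built, by merging peaks shared by the replicates of a treatment and then merging over treatments, with no selection against RNase H. The 10 windows held 22 of the 28518 regions. No region of a target was gained at 5 min (0 of 22, against 13.6% of all regions), and none was lost at 5 min (0 of 22, against 12.6%). At 60 min 9 of 22 were gained (against 29.7%) and 0 of 22 lost (against 12.5%). Without peaks met by RNase H 2 were gained at 60 min (against 13.3%) and 2 lost (against 23.4%), and with peaks up to 1 kb apart merged 2 were gained (against 25.3%). Of the 22, 6 had peaks in both lists of 60 min alone, 6 in all 6 DRIP lists and 10 a mixed pattern, and the shares of these patterns over all regions were 14.6%, 13.04% and 52.3%. Those in all lists lay at CDKN1A, BTG2, GADD45A, BBC3 and BAX, the last with 2. Wide 60 min peaks join smaller peaks into a single region, so a 5 min gain inside such a region was not counted. The BTG2 region ran from -1489 to +9725, while the NT lists held a 744-bp and a 596-bp peak in the BTG2 window, which did not overlap.

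**Figure D5:**
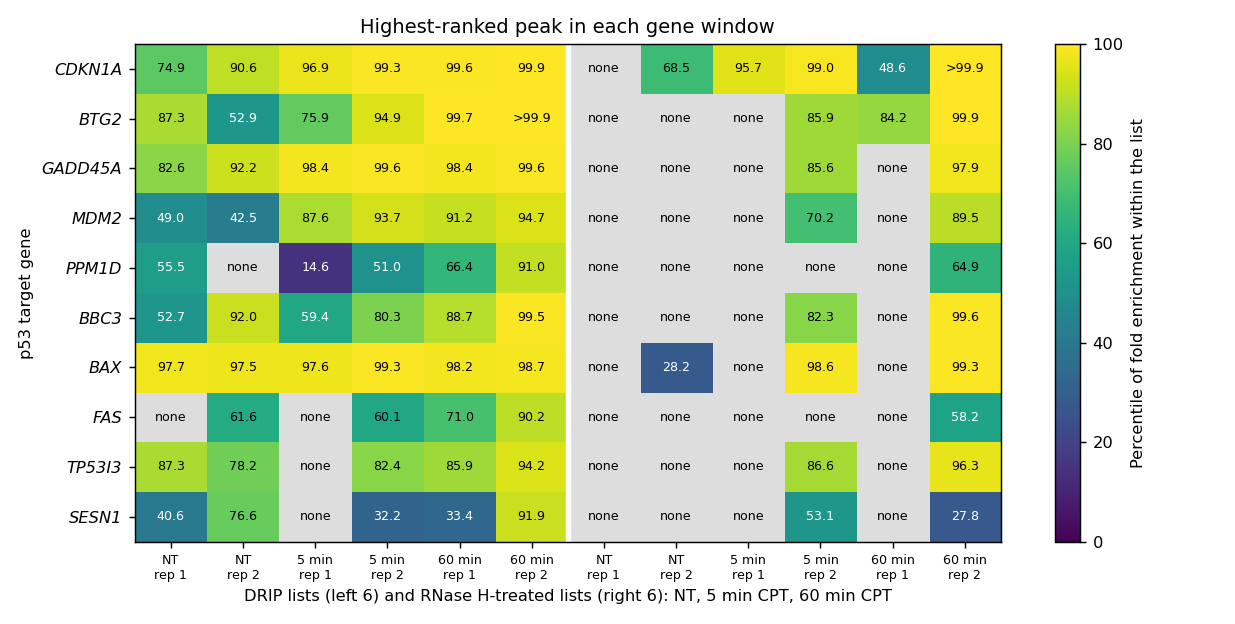
Percentile, within its list, of the fold enrichment of the highest-ranked peak in each gene window (rows) for the 6 DRIP lists (left) and the 6 RNase H lists (right); none marks a window without a peak. The second 60 min DRIP list has a peak above percentile 90 in all 10 windows, and the RNase H lists of the first replicates have a peak in at most 2 windows.

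The RNase H lists bear on how much of this signal was removed by the enzyme. The share of DRIP peaks of the targets met by a peak of the matched RNase H list was 0 of 23 in NT replicate 1 (95% Wilson interval 0 to 14.3%), 8.33% of 24 in NT replicate 2 (2.32 to 25.8%), and 4.76% of 21 in 5 min replicate 1 (0.846 to 22.7%). It was 48.6% of 37 in 5 min replicate 2 (33.4 to 64.1%), 6.06% of 33 in 60 min replicate 1 (1.68 to 19.6%) and 56.5% of 62 in 60 min replicate 2 (44.1 to 68.1%). Over whole lists the shares were 0.445%, 10.8%, 2.79%, 33.0%, 1.70% and 49.0%, in the same order. These intervals cover counting error only and treat each peak as independent, although several peaks lie in the same gene. They are therefore not a test of the targets against the whole lists. The high shares were those of the longest RNase H lists, with 50353 and 67188 peaks. With every RNase H list limited to its 473 strongest peaks they were 0 in 5 min replicate 2 and 4.84% in 60 min replicate 2. So short a list can meet few DRIP peaks, so this setting cannot show why the shares differed, and the cause was not tested. With DRIP peaks left out wherever the matched RNase H list had one too, 3 of 10 genes (SESN1, FAS and MDM2) lay above NT at 60 min, against 15.7% of all genes, and 2 of 10 (BTG2 and MDM2) at 5 min, against 10.8%. Under that setting CDKN1A, BBC3, BAX and TP53I3 lay below NT at 5 min, against 20.5% of all genes. The filter removed unequal shares of the lists, as given above, and this was not separated from the treatment.

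Other genes of the pathway were examined as a list. Of 34 further p53 targets, 9 lay above both NT lists at 5 min and 3 below, and 20 above and 0 below at 60 min, with median differences of 359 and 3688.75 bp. The background shares are those given above for all genes. Among the genes above NT at both times, TRIAP1, an inhibitor of apoptosis under p53 control, had the largest difference in covered share of the window at 60 min, with 682 and 872 bp in NT, 5266 and 8292 bp at 5 min and 5708 and 10544 bp at 60 min. PLK2, a polo-like kinase, had 0 and 702 bp, then 2528 and 4115 bp, then 2418 and 8576 bp. CCNG1 (cyclin G1), SESN2 (sestrin 2) and FBXO22 (an F-box protein) had 21.1, 15.8 and 13.7% more of their windows covered at 60 min than in NT.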

How the data were processed

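Reads were trimmed (Cutadapt), mapped by BWA to human (hg19) and spike-in yeast sequence, and cleared of duplicates and blacklisted regions by the authors, whose MACS2 peaks were called per library with the paired input as control. Deposited per peak are a fold enrichment (a ratio of the summit to its input) and the −log10 p and −log10 q values. The deposited score is a rescaled −log10 q-value and was not used. Spike-in scaling and read counts are not part of the lists. Genes came from GENCODE release 44 on GRCh37, with the TSS at the 5′ end of the gene record. Bases under peaks, peak numbers and ranks by fold enrichment were computed per list with Python 3.11.15, NumPy 2.4.6, pandas 2.3.3 and SciPy 1.17.1, and plots were drawn with Matplotlib 3.10.9. A gene was called higher or lower when both lists of a treatment lay beyond both NT lists, by 1 bp or more, and functions were tested on simulated lists. The gene windows extend 5 kb on each side. A region was present with a peak in both replicates and absent with a peak in neither. All 10 members are named; of the other pathway genes, at most 6 were named, those called in the same direction at both times with the largest difference at 60 min. The members and lists were chosen with earlier results of these data known. Alternatives were a stricter q (−log10 q from 3), equally long lists, other windows, starts and merging, each replicate left out, and RNase H filters. Replicates are labelled as biological, and precision is limited by 2 per treatment. Some pathway genes and reference sequences are not reported here.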

Additional observations from a re-analysis of the deposited data

How the results depend on the processing

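Genes above NT at 5 min, 3 in the report, numbered 1 by the number of peaks in a window (against 11.9% of all genes). Without replicate 2 they numbered 4 (against 31.3%), and without replicate 1 they numbered 7 (against 35%). Genes below NT at 5 min, 0 in the report, numbered 3 in lists of equal size (against 17.8%) and 4 without peaks met by RNase H (against 20.5%). They numbered 5 without replicate 2 (against 34%) and 3 without replicate 1 (against 39.3%). Genes above NT at 60 min, 6 in the report, numbered 3 without peaks met by RNase H (against 15.7%). Without replicate 2, 9 lay above (against 43.9%) and 1 below, PPM1D (against 24.4%). Without replicate 1, 10 lay above (against 52.8%) and 0 below (against 24.1%). In a paired reading with the replicate block, in which differences were taken within a replicate number, 3 genes were higher and 2 lower (BBC3 and BAX) at 5 min, and 9 higher and 0 lower at 60 min. The shares of all genes in that reading were 20.6% and 25% at 5 min, and 37.2% and 14% at 60 min. The labels do not say that a number marks a shared batch, so the samples share only a number. Regions gained at 5 min (0) became 1 without peaks met by RNase H, 2 with absence in at least 1 replicate, 1 with peaks up to 1 kb apart merged, and 5 to 11 without one replicate. Regions lost at 5 min (0) became 2 in lists of equal size (against 18.6%) and 3 without peaks met by RNase H (against 25%). With looser absence there were 2 (against 26.6%), without replicate 2 there were 10 (against 27.5%) and without replicate 1 there were 4 (against 28%). Those gained at 60 min (9) became 2 without peaks met by RNase H (against 13.3%) and 2 with 1 kb merging (against 25.3%). Without replicate 2 there were 25 (against 38.4%), and without replicate 1 there were 47 (against 42.7%). Those lost at 60 min (0) became 1 in lists of equal size (against 20.1%) and 2 without peaks met by RNase H (against 23.4%). With looser absence there was 1 (against 22.1%), and there were 9 without replicate 2 (against 25.4%) and 2 without replicate 1 (against 26%). Genes with a TSS peak in both NT lists (3) became 1 at −log10 q of at least 3 (against 12.7% of all genes). They became 6 from any transcript start (against 23.7%) and 6 within 5 kb (against 24.6%). Without replicate 1 and without replicate 2 there were 5 each (against 30.4% and 16.5%). The 5 min count (4) became 0 without peaks met by RNase H (against 4.37%). It was 4 without replicate 2 (against 16.1%) and 9 without replicate 1 (against 34.1%). The 60 min count (8) became 0 without peaks met by RNase H (against 5.44%). It was 8 without replicate 2 (against 26.5%) and 9 without replicate 1 (against 45.2%). With one replicate a single list decides each call. With RNase H lists of equal size the share of the targets' DRIP peaks met by one was 0 in 5 min replicate 2 and 4.84% in 60 min replicate 2, in place of 48.6% and 56.5%. Lists cut to 473 peaks can meet few DRIP peaks, so a fall was bound to follow. The cause of the changes was not tested. Library depth is not given by the lists and limits which loci have a peak.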

Other observations

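The first 1 kb downstream of the TSS differed among the p53 target genes in base composition, which the peak lists do not use. GC content ran from 47.7% in CDKN1A and 49.4% in TP53I3 to 69.7% in GADD45A, with a median of 58% over 20136 genes. CDKN1A had a CpG observed to expected ratio of 0.125 (percentile 4.15 of all genes), and PPM1D had 0.923 (percentile 94.3). GC skew, the excess of G over C on the coding strand, had a median of 0.0405 over all genes. It was 0.174 at BBC3, 0.157 at MDM2, 0.148 at FAS, 0.136 at GADD45A and 0.128 at CDKN1A. At SESN1 and TP53I3 it was 0.115 and 0.101. The skew was negative at BAX (-0.0197), PPM1D (-0.0202) and BTG2 (-0.0077). The start of the gene record is not the start of every transcript, and the 0 to +1 kb of CDKN1A lies before the cluster of its starts at +2250 to +2311.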
